A study of Mus musculus with 10 samples.

Results

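The genes described here encode 10 secreted carrier proteins of the yolk sac and liver: Afp, Ttr, Trf, Rbp4, Apoa1, Apoa2, Apoa4, Apob, Apoe and Apom. They were chosen by name, with no measured value in the rule, and all 10 were found among the 22878 gene symbols of the deposited tables, as 11 transcripts. These members and the gene lists used below were chosen with earlier results of these data known, so they are not blind to the day 6 differences. Their levels were followed in R1 mouse embryonic stem (ES) cells that carried a lentiviral shRNA against Smyd5 (shSmyd5) or against luciferase (shLuc, the control), and in the embryoid bodies (EBs) made from both lines. SMYD5 is a SET and MYND domain protein that places methyl groups on histone H4. ES cells were taken off their feeder layer on gelatin in medium with LIF and a GSK3 inhibitor. EBs grew in low attachment dishes without LIF for 24 h, 6 days, 10 days or 14 days. Poly(A) RNA was sequenced from 1 library per condition, 10 in all, so no difference between shSmyd5 and shLuc at a single stage has a replicate check.

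Carrier proteins move water-insoluble or reactive cargo through extracellular fluid: lipids, retinol, thyroid hormone, iron and fatty acids. In the mouse embryo many of them are made early by the visceral endoderm. This outer epithelium becomes the endoderm of the yolk sac and feeds the embryo before the placenta works. The fetal liver takes over their production later. Transcription of several of them in these tissues is known to use the nuclear receptor HNF4, the forkhead factors FOXA1 to FOXA3 and GATA factors.

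Levels are RPKM, that is reads per length of transcript and size of library, so that genes of different length can be set side by side. The shallowest library, shLuc ES cells, had 3895537 reads in genes and the deepest, shLuc EBs of day 6, had 43377815. Smyd5 had an RPKM of 4.51, 0.891, 0.492, 9.14 and 6.88 in shSmyd5 cells over the 5 stages, against 29.8, 10.7, 15.4, 24.9 and 13.1 in shLuc cells, so it was lower in the shSmyd5 library at each stage. A fold is shSmyd5 over shLuc on log2 of RPKM plus 0.1, which understates the change of genes near 0. Its 95% interval is the exact binomial one of the reads and covers counting error only. The median log2 fold of all genes lay at 0.14 at 24 h and at -0.27 at day 6, and within 0.05 of 0 at the other stages; folds relative to that median are given where they matter.

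The members lie on chromosomes 1, 5, 7, 9, 12, 17, 18 and 19 of mm9, with 3 of them on chromosome 9. Bases before the start site are shown for the 5 members whose sequence held TATAAA or a forkhead motif within 160 bases. Any link between these motifs and the levels of the genes was not tested. The sequences come from RefSeq promoters (a GRCm38.p6 table), matched letter for letter to NCBIM37, the mm9 assembly, and run 5′ to 3′ up to the base before the RefSeq start site. Capitals mark the letters TATAAA, the forkhead motif (TGTTTGC or TGTTTAC, or its reverse complement GCAAACA) and the GATA motif (GATAA, or its reverse complement TTATC).
Afp, chr5:90919580-90919739, + strand: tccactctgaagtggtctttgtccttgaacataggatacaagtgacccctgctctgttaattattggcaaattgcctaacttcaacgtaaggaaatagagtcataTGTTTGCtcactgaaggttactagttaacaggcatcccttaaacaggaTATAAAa
Rbp4, chr19:38199302-38199461, - strand: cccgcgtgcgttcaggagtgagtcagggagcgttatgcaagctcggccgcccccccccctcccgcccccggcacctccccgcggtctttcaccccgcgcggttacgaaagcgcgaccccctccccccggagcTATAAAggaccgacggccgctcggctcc
Apoa1, chr9:46036553-46036712, + strand: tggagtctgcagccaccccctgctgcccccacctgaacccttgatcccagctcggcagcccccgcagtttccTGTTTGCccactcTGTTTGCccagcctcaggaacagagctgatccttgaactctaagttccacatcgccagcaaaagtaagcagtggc
Apoa2, chr1:173155025-173155184, + strand: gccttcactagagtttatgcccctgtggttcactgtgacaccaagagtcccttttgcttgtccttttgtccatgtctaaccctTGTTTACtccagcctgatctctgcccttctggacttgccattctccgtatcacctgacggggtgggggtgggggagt
Apob, chr12:7984323-7984482, + strand: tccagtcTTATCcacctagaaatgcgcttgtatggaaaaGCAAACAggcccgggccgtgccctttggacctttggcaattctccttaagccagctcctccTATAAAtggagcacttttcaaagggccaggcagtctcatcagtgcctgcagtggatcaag

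Of the 8 members searched (all but Trf and Ttr), over 250 bases before the start and on both strands, 4 held TATAAA and 4 held a forkhead motif, against 12.4% and 7.29% of all 32851 promoters in the table. GATAA was found in 2 members (22.6% of promoters) and the HNF4 motif CAAAGTNCA in 1 (1.19%), the last in Apoa4, at -182 to -174 from its start. Apoa1 held 2 forkhead matches, at -88 to -82 and at -75 to -69. Afp held its forkhead match at -55 to -49. TATAAA lay at -28 to -23 in Rbp4, at -60 to -55 in Apob, at -7 to -2 in Afp and, outside the bases shown, at -212 to -207 in Apoa2. These are matches of letters and not measured binding or start elements. The RefSeq start lay 148 bases from the GENCODE start in Apoa4 and 869 bases from it in Apom. In the other members searched it lay at most 50 bases away. Rbp4 and Apoa2 had 2 listed promoters each and Apoe had 3, of which the closest to the GENCODE start was used. Positions and missing matches depend on the start chosen.

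Over the course of differentiation, all 10 members changed with stage. In the edgeR quasi-likelihood test of stage, with the shRNA as a block, the adjusted p of the members ran from 1.27e-05 (Trf and Apoa2) to 3.15e-04 (Apoe). The same test called 65.3% of all 12277 genes tested, so a change with stage was not particular to the carriers. Afp changed the most, with 0 reads in both ES cell libraries, and by RPKM it was gene 3 of all genes in shSmyd5 EBs and gene 2 in shLuc EBs of day 14. With the shRNA as a block, the p-values measure how the difference between the shSmyd5 and shLuc library varied over the stages. They do not measure the spread between cultures grown alike.

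**Figure D1:**
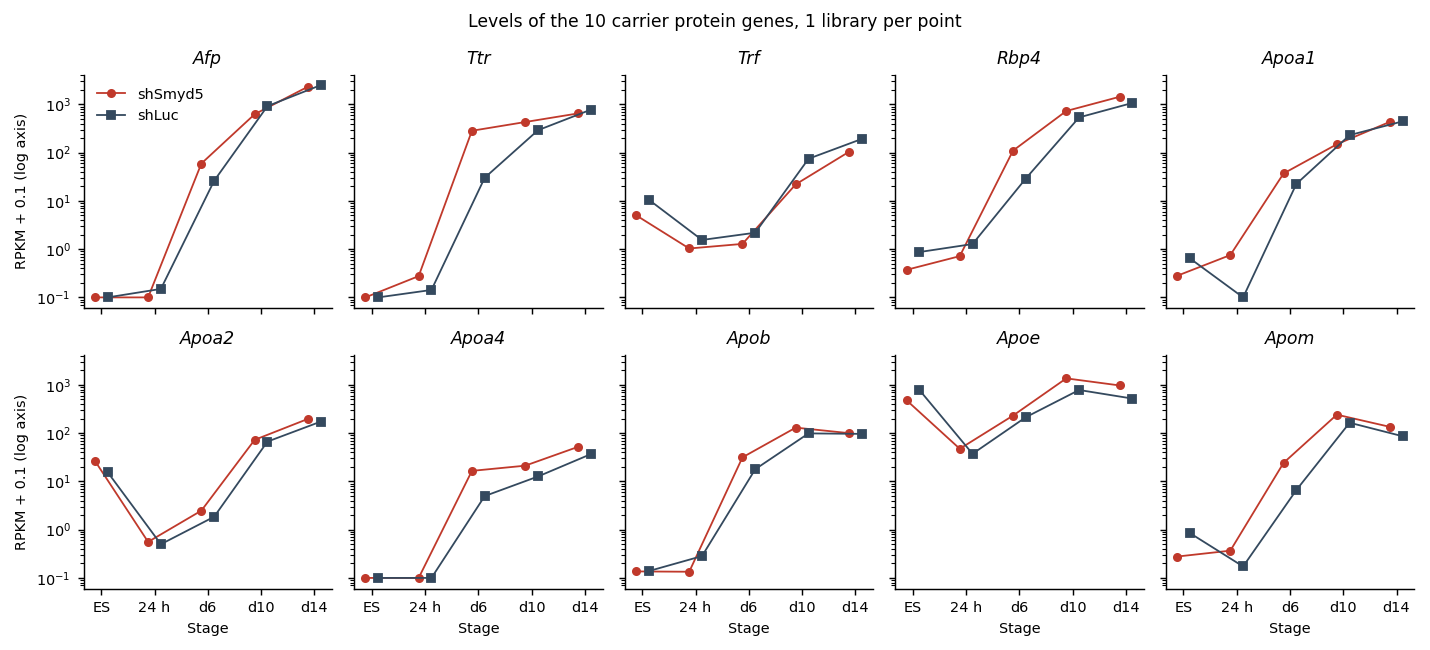
RPKM plus 0.1 (log axis) of each of the 10 genes against stage (ES, ES cells; 24 h to d14, EBs), shSmyd5 circles and shLuc squares, with 1 library per point. Trf, Apoa2 and Apoe start high in ES cells and dip at 24 h, and the other 7 start near 0; at d6 the shSmyd5 point of Ttr (285) stands far above that of shLuc (30.1).

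Undifferentiated ES cells held 3 of the members at an RPKM of 3 or more, the level the study used as its limit. Apoe, the ligand by which lipoproteins are taken up through receptors of the LDL receptor family, had an RPKM of 483 in shSmyd5 and 793 in shLuc ES cells, at rank 71 and rank 29 of all genes. Apoa2, a small apolipoprotein of high-density lipoprotein, had 26.8 in shSmyd5 and 15.5 in shLuc ES cells. Trf, which encodes the plasma iron carrier transferrin, had 4.96 in shSmyd5 and 10.5 in shLuc ES cells, a log2 fold of -1.07 (-1.36 to -0.80). It was the only member past 2-fold in ES cells, where 4.52% of genes were at least 2-fold higher and 11.3% at least 2-fold lower. With TMM scaling Trf was under 2-fold (-0.85) and Apoa2 passed in its place, in the other direction (1.01), and 931 genes were higher and 605 lower, against 422 higher and 1051 lower as deposited. The other 7 members had at most 20 reads in either ES cell library. The log2 fold of Apoe in ES cells was -0.71 (-0.76 to -0.67) and that of Apoa2 was 0.79 (0.35 to 1.26). Freed of the trend on GC content and transcript length, which were removed together, Apoe was at -0.10, Apoa2 at 0.05 and Trf at -0.86.

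At 24 h without LIF the 3 members that ES cells express were lower in both lines. Apoe had an RPKM of 47.5 in shSmyd5 and 37.3 in shLuc EBs of 24 h, log2 changes of -3.34 and -4.41 from the ES cells of the same line. Apoa2 had 0.459 in shSmyd5 and 0.400 in shLuc EBs, from 10 and 4 reads, and Trf had 0.932 in shSmyd5 and 1.45 in shLuc EBs. In the edgeR contrast of 24 h over ES cells, which called 14.2% of genes lower, these 3 were the members that passed: Apoa2 at -5.23 ± 0.47 (log2 fold ± SE, adjusted p = 0.00235), Apoe at -3.53 ± 0.43 (adjusted p = 0.00235) and Trf at -2.21 ± 0.35 (adjusted p = 0.00454). None of the 10 members passed in the other direction in edgeR, which called 15.8% of genes higher. Apob passed in DESeq2, with 2413 of all genes higher. Ttr (5.63, adjusted p = 0.0309) passed in edgeR without the day 6 libraries, with 2057 of all genes higher. By fold alone, within one line, the same 3 members were past 2-fold at a level of 3 or more, where 31.8% of genes were past it in either direction in shSmyd5 and 61.2% in shLuc. Apoe was the only member with an RPKM of at least 3 at 24 h, and its fold was 0.35 (0.24 to 0.46), or 0.21 relative to the median of all genes. So no member was called between shSmyd5 and shLuc at 24 h, against 13.0% of genes higher and 4.26% lower (1087 and 356 genes, or 838 and 650 with TMM). Apoa1, the main protein of high-density lipoprotein, had 27 reads in the shSmyd5 library of 24 h and 0 in the shLuc library, at least 4.13-fold higher when set against a floor of 3 reads in the shLuc library, at an RPKM of only 0.655.

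Between 24 h and day 6, 9 of the 10 members rose, where the edgeR contrast called 12.7% of genes higher and 7.04% lower. Ttr, the carrier of thyroid hormone and of the retinol-binding protein, was at 9 reads and then 22375 in shSmyd5 EBs, and at 1 read and then 2375 in shLuc EBs. Its fitted change was 10.05 ± 1.14 (adjusted p = 5.77e-04). Afp, alpha-fetoprotein, the main plasma protein of the fetus, had 0 reads and then 7996 in shSmyd5 EBs, at least 1732-fold higher when set against a floor of 3 reads, and 2 and then 3514 reads in shLuc EBs. Apoa4, an apolipoprotein of chylomicrons and high-density lipoprotein, had 0 reads at 24 h in both lines and 1767 (shSmyd5) and 525 (shLuc) reads at day 6, at least 383-fold (shSmyd5) and at least 52.0-fold (shLuc) higher against that floor. Apob, the large structural protein of chylomicrons and very-low-density lipoprotein, had 20 and then 28224 reads in shSmyd5 EBs, and 49 and then 16021 reads in shLuc EBs. The fitted change was 2.20 ± 0.41 for Apoe (adjusted p = 0.00481) and 2.11 ± 0.46 for Apoa2 (adjusted p = 0.00999). Trf was the member that did not pass: its RPKM at day 6 was 1.19 in shSmyd5 and 2.09 in shLuc EBs (fitted change 0.24 ± 0.34, adjusted p = 0.66). By fold alone, 8 members were past 2-fold in shSmyd5, against 40.0% of genes in either direction, and 8 in shLuc, against 34.7%.

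From day 6 to day 10, 7 of the 10 members rose, where 8.60% of genes were called higher and 9.46% lower. Apoa2 (4.65 ± 0.40, adjusted p = 6.86e-04) and Trf (4.28 ± 0.38, adjusted p = 6.86e-04) had the largest fitted changes, and both had an RPKM under 3 on day 6 in both lines. The others were Afp at 3.72 ± 0.62, Apom at 3.44 ± 0.54, Rbp4 at 2.79 ± 0.62, Apoa1 at 2.27 ± 0.60 and Apoe at 1.81 ± 0.40, with adjusted p from 0.00481 to 0.0288. Apob (1.73 ± 0.62, adjusted p = 0.0732), Ttr (1.11 ± 0.74, adjusted p = 0.304) and Apoa4 (0.36 ± 0.46, adjusted p = 0.603) did not pass. Apob passed in 5 of 10 alternatives: DESeq2, limma with either pseudocount, edgeR with no filter, and edgeR without the 24 h libraries (1.81, adjusted p = 0.0113). Apoa1 did not pass in DESeq2 (adjusted p = 0.132). By fold alone, 8 members were past 2-fold in shSmyd5, against 45.2% of genes in either direction, and 10 in shLuc, against 37.2%.

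From day 10 to day 14 no member passed the test, which called 9 of 12277 genes (0.0733%), all higher at day 14; 5 members had an unadjusted p under 0.05, against 7.58% of genes. DESeq2 called 2 members there, Trf and Apoa2, among 120 of the 12277 genes (92 higher and 28 lower). By fold alone, 5 members were past 2-fold in shSmyd5, against 5.71% of genes in either direction, and 5 in shLuc, against 19.6%. The values went both ways. Trf had an RPKM of 22.0 on day 10 and 104 on day 14 in shSmyd5 EBs, and 74.7 and 192 in shLuc EBs (fitted change 1.87 ± 0.34, adjusted p = 0.0804). Apoa2 had 72.7 and 198 in shSmyd5 EBs, and 66.9 and 174 in shLuc EBs. Apom, the lipocalin of high-density lipoprotein that carries sphingosine 1-phosphate, had 242 and 135 in shSmyd5 EBs, and 165 and 86.1 in shLuc EBs (-0.78 ± 0.49, adjusted p = 0.719). Apoe had 1371 and 978 in shSmyd5 EBs, and 787 and 522 in shLuc EBs (-0.43 ± 0.39, adjusted p = 0.782). Apob had 130 and 100.2 in shSmyd5 EBs, and 99.0 and 96.8 in shLuc EBs.

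The make-up of the group changed with stage. Apoe made up 93.7% of the members' summed RPKM in shSmyd5 and 96.6% in shLuc ES cells. At day 14 Afp was first, with 36.3% in shSmyd5 and 42.4% in shLuc EBs, followed by Rbp4 with 22.4% in shSmyd5 and 18.1% in shLuc EBs. Apoe then held 15.2% in shSmyd5 and 8.82% in shLuc EBs, and Ttr 10.2% in shSmyd5 and 13.2% in shLuc EBs. The order below these differed between the lines by 1 or 2 places, with Trf at place 8 in shSmyd5 and 6 in shLuc EBs and Apoa4 last in both. The members together took 0.0102% of all reads in genes at 24 h and 1.405% on day 14 in shSmyd5 EBs, and 0.00934% and 1.398% in shLuc EBs.

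**Figure D2:**
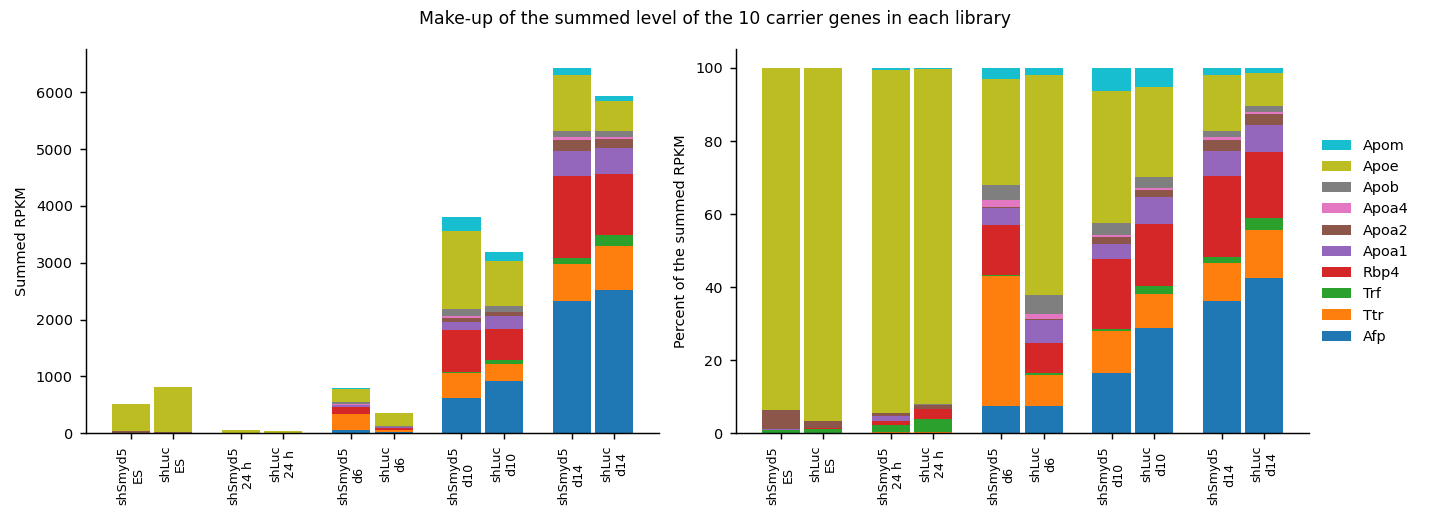
Stacked bars of the RPKM of the 10 genes in each library (left, summed RPKM) and as a percent of that sum (right), 1 library per bar, shSmyd5 left of shLuc at each stage. Apoe fills nearly all of the ES cell and 24 h bars; at d6 Ttr makes up 35.6% of the shSmyd5 bar and 8.48% of the shLuc bar.

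Day 6 was the stage with the most members past 2-fold between shSmyd5 and shLuc cells. Of the 8 members with an RPKM of at least 3, all of which reached it in both libraries, 5 were at least 2-fold higher in shSmyd5 EBs and none was lower by that much. Over all genes, 8.18% were at least 2-fold higher and 19.4% at least 2-fold lower. That balance turned with the scaling: 774 genes were higher and 1834 lower as deposited, 1162 and 1049 relative to the median, and 1341 and 913 with TMM, where 7 members were higher and none lower. The median log2 fold of the 8 members was 1.46, against -0.35 over all genes at that level. The members' summed RPKM was 799 in shSmyd5 and 355 in shLuc EBs. In bulk EBs, more cells that express a gene and more RNA per cell cannot be told apart.

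Ttr had the largest difference at day 6, with an RPKM of 285 in shSmyd5 and 30.1 in shLuc EBs, 9.42-fold higher (log2 fold 3.24, 3.18 to 3.30). Rbp4, the plasma carrier of retinol that travels bound to the TTR protein, had 110.2 in shSmyd5 and 29.0 in shLuc EBs, 3.79-fold higher (1.92, 1.85 to 2.00). Apom had 24.2 in shSmyd5 and 6.54 in shLuc EBs, 3.66-fold higher (1.87, 1.70 to 2.08). Apoa4 had 16.5 in shSmyd5 and 4.88 in shLuc EBs, 3.33-fold higher (1.73, 1.61 to 1.90). Afp had 59.5 in shSmyd5 and 26.1 in shLuc EBs, 2.28-fold higher (1.19, 1.13 to 1.25). These 5 stayed past 2-fold with each scaling, pseudocount and GC correction tried. Apob, with 31.5 in shSmyd5 and 17.8 in shLuc EBs (log2 fold 0.82, 0.79 to 0.85), and Apoa1, with 37.0 in shSmyd5 and 22.4 in shLuc EBs (0.72, 0.63 to 0.82), were under 2-fold. Apoe, the most abundant member in shLuc EBs of day 6, had 232 in shSmyd5 and 214 in shLuc EBs (0.11, 0.08 to 0.14). Trf and Apoa2 were under an RPKM of 3 in both libraries. Relative to the median of all genes, which was lower in shSmyd5, each of these log2 folds is larger by 0.27, and Apob then also passes 2-fold (1.09).

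**Figure D3:**
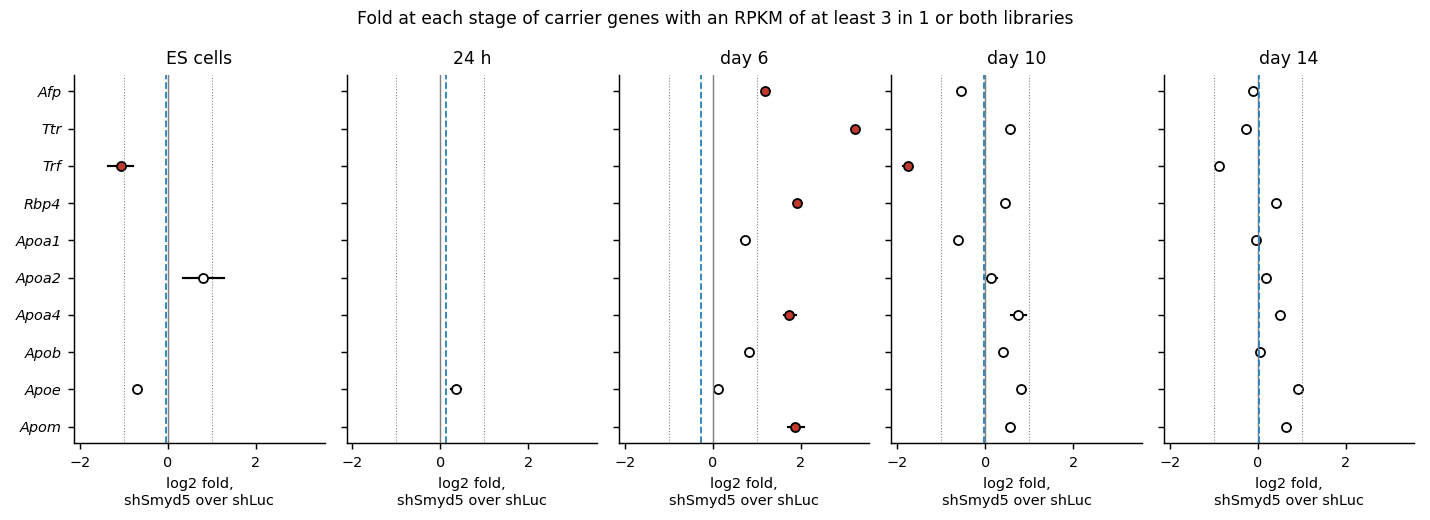
Log2 fold of shSmyd5 over shLuc (x axis) for each gene that reached an RPKM of 3 in either library, 1 panel per stage; bars are exact binomial 95% intervals of the reads, filled points are at least 2-fold, dotted lines mark 2-fold and the dashed line the median of all genes. Filled points lie to the right for 5 genes on day 6, and to the left for Trf in ES cells (-1.07) and on day 10 (-1.76).

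On day 10 all 10 members reached an RPKM of 3 in both libraries. None was at least 2-fold higher and 1, Trf, at least 2-fold lower, where 3.15% of genes were higher and 6.51% lower by that much (333 and 689 genes, or 419 and 438 with TMM). Ttr was at 432 in shSmyd5 and 292 in shLuc EBs (0.56, 0.52 to 0.61), and Rbp4 at 731 in shSmyd5 and 538 in shLuc EBs (0.44, 0.41 to 0.48). Afp was at 626 in shSmyd5 and 922 in shLuc EBs (-0.56, -0.58 to -0.53) and Apoa1 at 149 in shSmyd5 and 231 in shLuc EBs (-0.63, -0.70 to -0.56), both on the other side of 0 from day 6. Apoe was at 1371 in shSmyd5 and 787 in shLuc EBs (0.80, 0.78 to 0.82), and with the GC and length trend removed at 1.18, past 2-fold.

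On day 14 none of the 10 members was 2-fold higher or lower, where 3.17% of genes were higher and 4.07% lower. Afp had an RPKM of 2332 in shSmyd5 and 2512 in shLuc EBs (-0.11, -0.12 to -0.10) and Apoa1 had 438 in shSmyd5 and 447 in shLuc EBs (-0.03, -0.06 to 0.00). Apoe, at 978 in shSmyd5 and 522 in shLuc EBs, had the highest fold (0.90, 0.88 to 0.93). Trf, at 104 in shSmyd5 and 192 in shLuc EBs, had the lowest (-0.88), and with the GC and length trend removed it was at -1.01, past 2-fold. Apom was at 0.65 (0.57 to 0.72) and Apoa4, with 52.4 in shSmyd5 and 37.1 in shLuc EBs, at 0.50 (0.42 to 0.58).

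Trf stood apart from the other members, being lower in the shSmyd5 library at each of the 5 stages. Its RPKM was 4.96, 0.932, 1.19, 22.0 and 104 in shSmyd5 cells over ES cells, 24 h, day 6, day 10 and day 14, against 10.5, 1.45, 2.09, 74.7 and 192 in shLuc cells. The largest gap was on day 10, where it was 3.39-fold lower (-1.76, -1.88 to -1.66). In the edgeR test of a knockdown effect shared over the 5 stages, with the stage as a block, Trf had a log2 fold of -0.98 ± 0.21 (unadjusted p = 8.44e-04), and an adjusted p of 0.143, which does not pass. Over 13 alternatives the adjusted p of Trf ran from 0.00265, in DESeq2, the one that called it, to 1.

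The shared test called no gene at all (0 of 12277, 0%); 1425 genes, 11.6%, had an unadjusted p under 0.05 by edgeR, and DESeq2 called 333. Among the members, 3 had an unadjusted p under 0.05: Trf, Apoa4 (1.12 ± 0.38, adjusted p = 0.312) and Apom (1.00 ± 0.39, adjusted p = 0.358). Without the day 6 libraries the fitted fold was 0.65 for Apoa4 and 0.51 for Apom. For the others the fitted fold ran from -0.01 ± 0.41 (Apob) to 1.25 ± 0.62 (Ttr), with adjusted p from 0.472 to 0.997. Smyd5 itself, the target, was at -2.63 with an adjusted p of 0.107, so the test did not reach its threshold for the gene that was knocked down.

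The day 6 difference was also tested as such, as the fold on that day less the mean fold of the other 4 stages. Again no gene passed in edgeR (0 of 12277, 0%), 1052 genes (8.57%) had an unadjusted p under 0.05 and DESeq2 called 161. The fitted difference was above 0 for all 10 members, and 5 of them, those past 2-fold on day 6, had an unadjusted p under 0.05. In edgeR, Ttr was at 3.30 ± 0.63 (adjusted p = 0.272), Rbp4 at 2.29 ± 0.67 (adjusted p = 0.395), Afp at 1.95 ± 0.70 (adjusted p = 0.487), Apom at 1.73 ± 0.65 (adjusted p = 0.500) and Apoa4 at 1.46 ± 0.62 (adjusted p = 0.576). Ttr passed in 2 of 11 alternatives, DESeq2 (adjusted p = 1.69e-04) and edgeR without the filter on low genes (adjusted p = 0.0328), and over all of them its adjusted p ran from 1.69e-04 to 0.607. Day 6 was singled out with its folds known, so these p-values are not independent evidence.

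**Figure D4:**
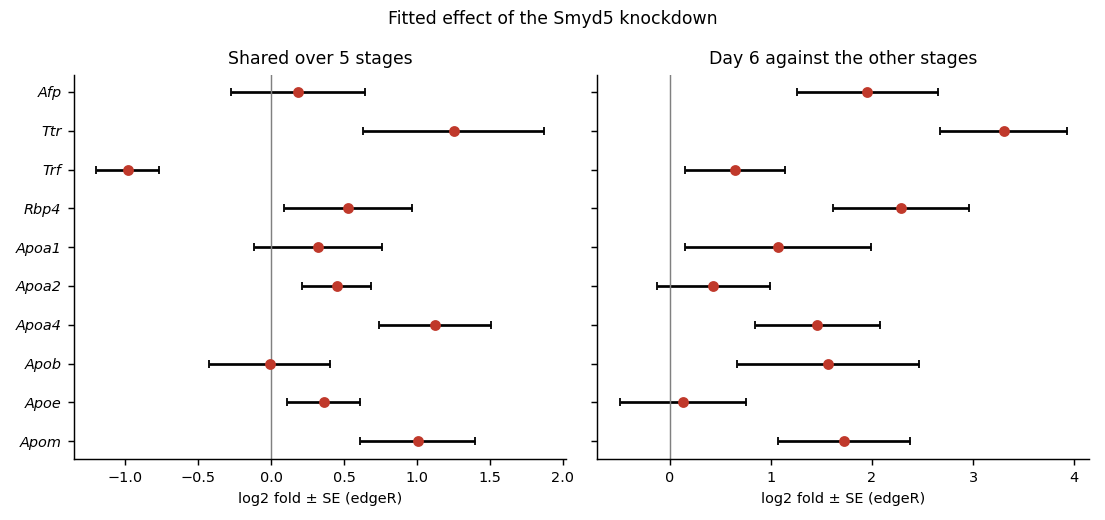
Fitted log2 fold with its SE (edgeR) for each of the 10 genes, for the effect shared over the 5 stages (left) and for day 6 against the other stages (right). Only Trf lies well to the left of 0 in the shared test (-0.98), and Ttr has the largest day 6 difference (3.30); neither panel has a gene with an adjusted p under 0.05.

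Across the 10 libraries the members followed each other to different degrees. On log2 of RPKM plus 0.1 the median Pearson r over pairs of members was 0.90. The highest was 0.995 (Afp with Rbp4), followed by 0.994 (Ttr with Apoa4), and the lowest was 0.52 (Ttr with Apoe). Against the mean of the other members, Apom (0.98), Afp (0.97), Apoa1 (0.97) and Rbp4 (0.96) were closest, and Trf (0.77), Apoa2 (0.76) and Apoe (0.69), the 3 genes that ES cells express, were farthest. The libraries share their stage, so these values describe the shared course and have no p. Among 8416 other genes that reached an RPKM of 10, those closest to Afp were Spp2, a secreted phosphoprotein (r = 0.998), Gpc6, a glypican (0.996), the transcription factor gene Ets1 (0.993), Gyg, the glycogen primer glycogenin (0.992), and the kinase gene Nrk (0.992). Those closest to the mean of the members were Parva, an actin-binding adhesion protein (0.993), Snx9, Ctdspl, 2310021P13Rik and Lcp1 (0.991 to 0.987). Which genes were closest depended on the libraries: to Afp, Rabgap1 and Gyg came first over the 5 shLuc libraries alone, and Fndc3b and Tspan8 over the 5 shSmyd5 libraries alone, with Spp2 among the first 5 in neither.

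Genes that lie beside the carriers did not all share their course. Alb and Afm, the albumin family genes that flank Afp on chromosome 5 (Alb ends 14111 bases before it), had little signal where Afp was high. Alb had an RPKM of 0.250 in shSmyd5 and 6.53 in shLuc EBs of day 14, and at most 0.205 in the other 8 libraries, and Afm had 6.07 in shSmyd5 and 11.3 in shLuc EBs of day 14. Between Apoa1 and Apoa4 on chromosome 9 lies Apoc3, an inhibitor of lipoprotein lipase, which reached 2.34 at most. Next to Apoe on chromosome 7, Apoc2, the activator of lipoprotein lipase, had 38.7 in shSmyd5 and 13.2 in shLuc EBs of day 6, while Apoc1 had 27.2 in shSmyd5 and 12.4 in shLuc ES cells. The deposited counts carry no strand. An antisense transcript (Gm10680) overlaps Apoa4 by 839 bases and another (Gm16090) overlaps Ttr by 11, and a second gene model named Trf covers most of Trf. The reads of these pairs cannot be told apart, and likewise those of the 2 transcripts of Rbp4, of which the one with more reads was used.

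Other secreted proteins of the yolk sac and liver were mostly low on day 6, when 4 of 28 listed genes had an RPKM of at least 3. All 4 were at least 2-fold higher in shSmyd5 EBs, where 8.18% of all genes were. Of the 4, 3 reached an RPKM of 3 in shLuc EBs too. Spp2 had an RPKM of 13.3 in shSmyd5 and 3.26 in shLuc EBs (log2 fold 2.00), and Apoc1 had 35.9 in shSmyd5 and 10.3 in shLuc EBs (1.80). Fgb, the fibrinogen beta chain, had 5.05 in shSmyd5 and 1.54 in shLuc EBs (1.66). The log2 fold of Apoc2 was 1.54. On day 14, 16 were at that level, with 0 of them 2-fold higher and 1 lower (Alb), against 3.17% and 4.07% of all genes. Of the 15 tested, 14 changed with stage in edgeR (65.3% of all genes did).

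Of 18 genes of lipoprotein assembly and remodeling, 10 were measured on day 6, with 5 higher and 3 lower by at least 2-fold in shSmyd5 EBs. Of all genes, 8.18% were higher and 19.4% lower by that much. Mttp, the transfer protein that loads lipid onto APOB, had an RPKM of 26.8 in shSmyd5 and 7.56 in shLuc EBs (log2 fold 1.81). Soat2, a sterol acyltransferase gene, had 4.20 in shSmyd5 and 1.29 in shLuc EBs (1.63). Sar1b, a GTPase gene of the secretory coat, had 117 in shSmyd5 and 46.6 in shLuc EBs (1.32). The log2 fold of Dgat2, of triglyceride synthesis, was 1.19. On the lower side were Abcg1, a cholesterol exporter gene, with 1.12 in shSmyd5 and 5.81 in shLuc EBs (-2.28), the chaperone gene Pdia4 (-1.61) and the lipase gene Lpl (-1.58). The edgeR shared test called none of the 12 listed genes tested, 5 of which had an unadjusted p under 0.05 (11.6% of all genes).

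Of the receptors that take up these carriers, 11 of 13 listed genes in the files were measured on day 6. The endocytic receptor genes of the visceral endoderm were at least 2-fold higher in shSmyd5 EBs, where 8.18% of all genes were. Amn had an RPKM of 23.5 in shSmyd5 and 2.76 in shLuc EBs (log2 fold 3.05), and Dab2, an adaptor of endocytosis, had 457 in shSmyd5 and 58.3 in shLuc EBs (2.97). Cubn had 37.1 in shSmyd5 and 11.7 in shLuc EBs (1.66), and Lrp2 had 13.0 in shSmyd5 and 6.36 in shLuc EBs (1.01). Tfrc, the transferrin receptor gene, was lower, with 22.3 in shSmyd5 and 72.8 in shLuc EBs (-1.70). The edgeR shared test called none of the 13, 7 of which had an unadjusted p under 0.05 (11.6% of all genes).

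Of 20 endoderm and liver transcription factor genes, 11 were measured on day 6 and 10 of them were at least 2-fold higher in shSmyd5 EBs. Of all genes, 8.18% were higher and 19.4% lower by that much. An RPKM of 3 was reached by 10 of the listed genes in shSmyd5 and by 6 in shLuc EBs. Several of the higher genes were thus counted only through the shSmyd5 library, and Nr5a2 only through the shLuc library. Sox17 had an RPKM of 36.8 in shSmyd5 and 1.29 in shLuc EBs (log2 fold 4.73), and Sox7 had 20.4 in shSmyd5 and 1.68 in shLuc EBs (3.52). Gata6 had 34.1 in shSmyd5 and 3.59 in shLuc EBs (3.21), and Gata4 had 47.2 in shSmyd5 and 6.12 in shLuc EBs (2.93). The nuclear receptor gene Nr5a2 was lower, with 0.504 in shSmyd5 and 3.39 in shLuc EBs (-2.53). Factors of the forkhead and HNF4 motifs searched in the promoters are added here after their values were seen. On day 6, Foxa2 had 15.5 in shSmyd5 and 2.96 in shLuc EBs (2.35). Foxa1 had 6.24 in shSmyd5 and 1.40 in shLuc EBs (2.08), and Foxa3 had 1.17 in shSmyd5 and 0.866 in shLuc EBs. Hnf4a had 5.36 in shSmyd5 and 2.56 in shLuc EBs (1.03). At 24 h Foxa1 was lower in shSmyd5 EBs, at 0.765 against 3.04 in shLuc EBs (-1.86). Foxa1 was also lower on day 10 (-0.26) and day 14 (-0.46), where Foxa2 (1.08 and 1.24) and Foxa3 (1.24 and 1.01) were higher.

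**Figure D5:**
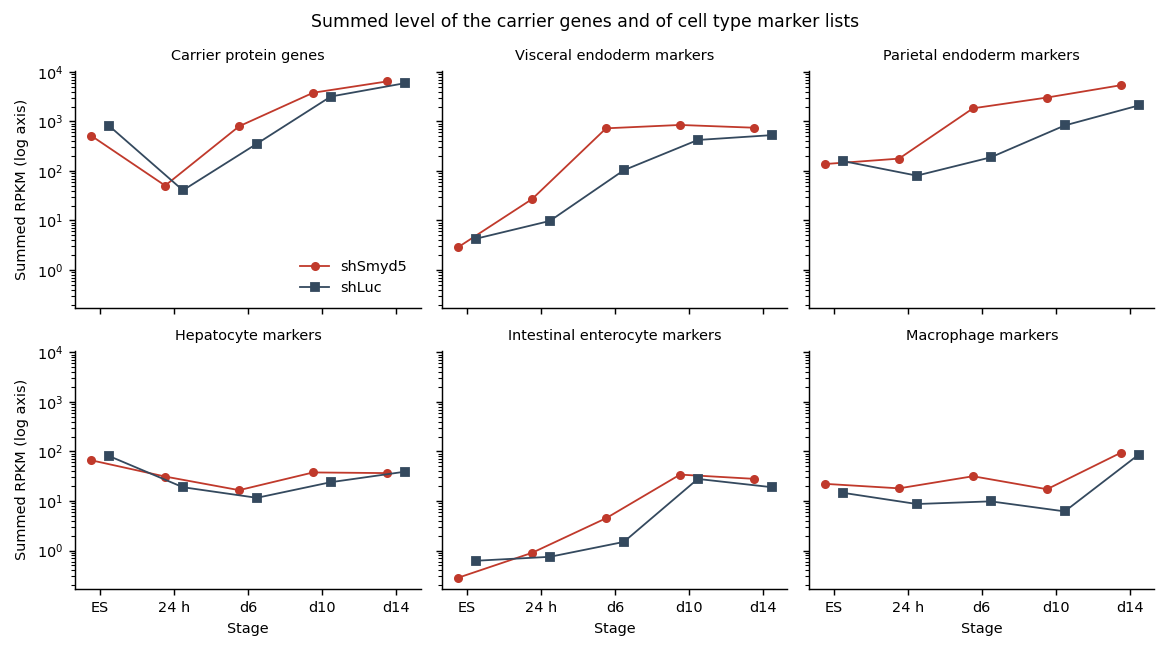
Summed RPKM (log axis) of the carrier genes and of 5 cell type marker lists against stage, shSmyd5 circles and shLuc squares, 1 library per point. At d6 the sums for visceral endoderm markers are 726 (shSmyd5) and 104 (shLuc), and for parietal endoderm markers 1842 (shSmyd5) and 188 (shLuc). At d14 the parietal sums are still apart, at 5395 (shSmyd5) and 2104 (shLuc), where the carrier genes are at 6431 (shSmyd5) and 5926 (shLuc).

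Markers of extraembryonic endoderm moved with the carrier genes on day 6. On that day 8.18% of all genes were at least 2-fold higher in shSmyd5 EBs. Of 11 visceral endoderm markers in the files, all 10 with an RPKM of at least 3 in either library were higher by that much. So were all 9 measured of 10 parietal endoderm markers, mostly genes of the basement membrane. In shLuc EBs only 6 visceral and 7 parietal markers reached 3. The rest were counted only through the library where they were high, so these counts are partly set by the filter. Of the parietal markers, Lama1 had an RPKM of 46.0 in shSmyd5 and 2.43 in shLuc EBs (log2 fold 4.19), and Sparc had 1197 in shSmyd5 and 91.6 in shLuc EBs (3.71). The summed RPKM of the visceral list on days 6, 10 and 14 was 726, 849 and 747 in shSmyd5 EBs, against 104, 423 and 529 in shLuc EBs. That of the parietal list was 1842, 3039 and 5395 in shSmyd5 EBs, against 188, 830 and 2104 in shLuc EBs. On day 14, 9 of 10 parietal markers were still at least 2-fold higher, while 4 of 11 visceral markers and 0 of 10 carrier genes were. Of all genes, 3.17% were higher by that much on day 14. The visceral list shares Amn, Cubn, Lrp2, Dab2, Hnf4a, Foxa2, Sox17, Gata4 and Gata6 with the lists above. The part of these cells in the differences of the carrier genes was not tested.

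Markers of other cells that make carrier proteins were partly present. Hepatocyte, enterocyte and macrophage markers were mostly low on day 6 and some were higher later, while 3 choroid plexus markers were measured already on day 6. The hepatocyte enzyme genes Tat and G6pc had at most 0.0552 RPKM in the 10 libraries. Tdo2 of the same list, a tryptophan-degrading enzyme, had 15.8 in shSmyd5 and 11.2 in shLuc EBs of day 10, and 14.0 in shSmyd5 and 14.5 in shLuc EBs of day 14. Of 10 hepatocyte markers Ass1 alone, which ES cells also express, reached 3 on day 6 (16.0 in shSmyd5 and 11.4 in shLuc EBs). Fabp2, of intestinal enterocytes, had 2.02 in shSmyd5 and 0.168 in shLuc EBs of day 6, and 5.78 in shSmyd5 and 5.11 in shLuc EBs of day 14. None of the 8 enterocyte markers reached 3 on day 6, and 4 did on day 14, none of them past 2-fold. Kl, of the choroid plexus, the brain tissue known for high TTR, had at most 0.101 in any library. Other genes of that list were measured, 3 of them on day 6. Of these, 2 were at least 2-fold higher in shSmyd5 EBs and 1 lower, where 8.18% and 19.4% of all genes were. Clic6 had 31.0 in shSmyd5 and 9.91 in shLuc EBs of day 6 (log2 fold 1.64), and 138 in shSmyd5 and 74.7 in shLuc EBs of day 10. Folr1 had 17.1 in shSmyd5 and 4.69 in shLuc EBs of day 6 (1.84), and 45.7 in shSmyd5 and 31.6 in shLuc EBs of day 10. Otx2 had 41.0 in shSmyd5 and 119 in shLuc EBs of day 6 (-1.53). Csf1r, of macrophages, which make APOE, had 0 in shSmyd5 and 0.0280 in shLuc EBs of day 6, and 12.9 in shSmyd5 and 10.3 in shLuc EBs of day 14, when 7 of 10 macrophage markers reached 3. Of that list Cd68 alone reached 3 on day 6, so no other could be counted. It was past 2-fold, with 31.6 in shSmyd5 and 9.68 in shLuc EBs, where 8.18% of all genes were higher by that much. Mbp, of oligodendrocytes, which make transferrin, had 1.26 in shSmyd5 and 3.23 in shLuc EBs of day 6. It was 1 of 2 among 10 oligodendrocyte and astrocyte markers measured there, and it reached 3 in the shLuc library only. Both were at least 2-fold lower in shSmyd5 EBs, where 19.4% of all genes were. On day 14, Mbp had 4.83 in shSmyd5 and 4.70 in shLuc EBs. On day 14 the summed macrophage markers were at 94.6 in shSmyd5 and 86.7 in shLuc EBs, while Apoe was at 978 in shSmyd5 and 522 in shLuc EBs. The part of these cells in the values of the carrier genes was not tested.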

How the data were processed

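Poly(A) RNA-Seq of R1 ES cells and EBs gave 10 libraries, 1 per shRNA and stage. Per the labels, the authors mapped the reads to mm9 with Bowtie2 and CASAVA (versions not given in the sources used here). The deposited read counts are whole reads per RefSeq transcript, and the deposited RPKM values are those reads scaled by the authors to transcript length and to the reads of the library. Recomputed from length and total reads, 100% of the RPKM values that rest on more than 200 reads came within 1% of those deposited. The shLuc files of days 6, 10 and 14 are marked as coming from another intermediate read format than the other 7, so at these stages that format and the shRNA cannot be told apart. The transcript with the most reads stood for each symbol.

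Members and lists were chosen with earlier results of these data known. Named genes are all members; of each list at most the 4 largest folds past 2-fold in each direction on day 6; 1 defining marker per other cell type; and the 5 genes closest in pattern. The 12 lists hold the members, other secreted proteins, lipoprotein assembly, receptors, transcription factors, and markers of visceral endoderm, parietal endoderm, hepatocytes, enterocytes, choroid plexus, macrophages, and oligodendrocytes with astrocytes. A gene counted at a single stage where it was past 2-fold and either library reached an RPKM of 3. A gene under that level in 1 library could therefore be counted only through the library where it was higher. Tests were edgeR quasi-likelihood tests on the 12277 genes whose mean RPKM reached 1 (TMM scaling, Benjamini-Hochberg over all genes, adjusted p of 0.05), checked on simulated data. The pairs of libraries of different stages stood in for replicates, so p-values measure the spread between them. The alternatives changed the scaling, tool, pseudocount, filter, block and stages, and removed a trend on GC content and length. One listed gene and one motif are not reported here. Coordinates are from GENCODE M1 on NCBIM37. Fits ran in edgeR 4.0.16, limma 3.58.1 and DESeq2 1.42.0 under R 4.3.3. Other steps ran in Python 3.11.15 with pandas 2.3.3, numpy 2.4.6 and scipy 1.17.1, and figures in matplotlib 3.10.9.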

Additional observations from a re-analysis of the deposited data

Results flagged for a closer look

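In 4 members the shSmyd5 library lay above the shLuc library at one stage and below it at another, with intervals of the reads that leave out 0 and an RPKM of at least 3 in all 4 libraries. Each stage has 1 pair of libraries, and the difference between such pairs of stages was not tested. The log2 fold of Afp was 1.19 on day 6 and -0.56 on day 10. That of Ttr was 3.24 on day 6 and -0.26 on day 14. That of Apoa1 was 0.72 on day 6 and -0.63 on day 10. That of Apoe was 0.90 on day 14 and -0.71 in ES cells, where it was -0.10 once freed of the GC and length trend.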

How the results depend on the processing

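Of the 7 single-stage folds past 2-fold, 7 kept their direction under each of 8 alternatives, and 6 or 7 stayed past 2-fold; Trf in ES cells was the one lost, with TMM scaling (where Apoa2 passed instead, at 1.01), with a pseudocount of 1 and with the GC and length trend removed. The last 2 left 0 members past 2-fold in ES cells. Over all genes, 301 were then higher and 802 lower with that pseudocount, and 108 and 302 with the trend removed. Removing the trend gave 2 members past 2-fold on day 10, Apoe (1.18) and Trf (-1.75), and 1 on day 14, Trf (-1.01). Over all genes it gave 309 higher and 428 lower on day 10, and 273 and 397 on day 14. Without the RPKM filter 4 members passed in ES cells and 3 at 24 h, and between ES cells and 24 h 5 passed in shSmyd5 and 6 in shLuc; over all genes, higher and lower counts were then 1113 and 1946 in ES cells, 2339 and 2128 at 24 h, and, between ES cells and 24 h, 1934 and 4237 in shSmyd5 and 3057 and 6181 in shLuc. The shared knockdown test called 1 member (Trf) in DESeq2. Over all genes it called 333 in DESeq2, 163 without a filter and 0 to 6 with a stage left out. The day 6 test called 1 member (Ttr) in DESeq2 and 1 without a filter, with 161 and 44 of all genes, and 0 to 17 with another stage left out, an alternative chosen after seeing the data. For day 14 over day 10, 2 members passed in DESeq2, 1 in limma with a pseudocount of 1 and 1 without a filter. Over all genes these settings called 120, 128 and 121 (the last of 19819 tested), in that order. Uncalled fitted folds changed sign as follows. In the shared knockdown test Afp was at -0.525 (DESeq2), -0.0123 (limma), -0.0998 (limma, trend removed), -0.185 (no stage block) and -0.4155 to 0.476 with a stage left out. Rbp4 was at -0.0159 (limma, trend removed) and -0.00941 to 0.878 with a stage left out, and Apoa1 at -0.125 (no stage block). Apob was at 0.0327 and 0.207 (limma, pseudocount 0.1 and 1), 0.0189 (no filter), 0.374 (no stage block), 0.176 (limma, trend removed) and -0.391 to 0.522 with a stage left out. In the day 6 test Apoe was at -0.223 and -0.222 (limma, pseudocount 0.1 and 1), -0.339 (limma, trend removed) and -0.184 to 0.281 with another stage left out, and Apoa2 at -0.155 (limma, trend removed, also chosen after seeing the data). For 24 h over ES cells Apoa1 was at -0.63 and -0.0701 (limma, pseudocount 0.1 and 1) and Apom at 0.00327 (size factors of DESeq2). Without the stage block the shared test called 0 genes, with 147 at an unadjusted p under 0.05. The stage block pairs the shSmyd5 and shLuc library of each stage; with it 1425 genes had an unadjusted p under 0.05. The labels give no replicate numbers to pair by. Depth limits the ES cell values most, with 3895537 reads in genes in the shLuc library.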
